A study of Mus musculus with 15 samples.

Results

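The cells described here are plasma cells, the antibody-secreting end stage of the B cell lineage, in digested mouse aortas. They were chosen from the UMI counts (unique molecular identifiers, each standing for 1 captured RNA molecule) by a rule on 9 genes. A kept cell had 200 to 7000 detected genes and at most 25% of its UMIs from mitochondrial genes. A plasma cell was a kept cell with at least 10 UMIs of Jchain, at least 2 each of Mzb1 and Xbp1, none of Ms4a1, Cd3e, Cdh5 or Csf1r, and at most 1 of Lum and Pdgfra together. This rule found 161 plasma cells among 128019 kept cells. B cells, taken as kept cells with at least 1 UMI each of Ms4a1 (which encodes CD20) and Cd79a, under 10 of Jchain, none of Cd3e, Cdh5 or Csf1r, and at most 1 of Lum and Pdgfra together, numbered 10722.

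The study compared aortas of wild type C57BL/6N mice at 2 ages, given vehicle or the flavonoid fisetin by oral gavage for 1 week, followed by 2 weeks without and 1 further week with treatment. Groups are written with Y for young or O for old, followed by VEH for vehicle or FIS for fisetin, and held 2 female (F1, F2) and 2 male libraries (M1, M2) each, except that O VEH held 1 male library. All mice of the vehicle groups received the same vehicle, and no group carried a transgene or deletion. The labels give old mice as 27 months and young mice as 3 months of age, the study's methods state another age for the young mice, and each library pooled 3 mice by its label (2 or 3 by the study's main methods), so the library is the replicate and differences between mice cannot be seen. Whole aortas freed of the surrounding fat were digested with collagenase and elastase, and living cells were sorted, so a cell that survives digestion poorly is counted too rarely.

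A plasma cell stops most of its B cell gene expression and turns its endoplasmic reticulum (ER) over to the folding and export of antibody. Blimp-1 (encoded by Prdm1), IRF4 and XBP1 are the transcription factors of this state, and syndecan-1 (Sdc1, CD138) and the survival receptor BCMA (Tnfrsf17) mark its surface. The J chain (Jchain) joins IgM and IgA into polymers, and Mzb1 encodes an ER chaperone of antibody assembly. Innate-like B-1 cells, which give rise to much of the natural IgM of a mouse, use a small set of V genes again and again.

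The 15 libraries held between 49964001 and 74587567 UMIs and between 6372 and 14805 kept cells. Library O FIS F1 stood apart for antibody RNA. In it, 46.2% of endothelial cells (ECs, which do not make antibody) carried a Jchain UMI against 0.198 to 7.37% in the other libraries, and Igkc, the kappa light chain, reached 1550 CPM (the gene's UMIs over all UMIs of these cells, scaled to a fixed total) in ECs against 25.9 to 185 CPM. Median depth of these ECs ran from 3248 to 5178 UMIs over the libraries. Jchain was at 123 CPM in the ECs of O FIS F1 and at 34782 CPM in its plasma cells, both over all UMIs and the latter with TMM scaling between libraries. Free RNA at this level limits what single UMIs can show in that library. Of 128328 distinct cell barcodes, 2203 occurred in more than 1 library. The barcodes of 7 plasma cells did, but in no case were both cells plasma cells. In Y FIS M1 all 3 plasma cells were called doublets, at a median of 8876 UMIs per cell.

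Plasma cells had a median of 756 Jchain UMIs (range 10 to 2976), 39 Mzb1 UMIs and 24 Xbp1 UMIs. The lowest members had 10, 14, 16, 25 and 26 Jchain UMIs, and just outside lay 6 cells with 5 to 9 Jchain UMIs, 4 with 1 Mzb1 UMI, 5 with 1 Xbp1 UMI and 4 with both genes under 2. The 3 minimums alone were met by 725 cells, and 564 of these failed the rule on the other genes, 495 of them for Ms4a1. Some failed on several genes, with 122 for Cdh5, 47 for Csf1r, 16 for Cd3e and 31 for Lum and Pdgfra. Among the 564 were 380 cells with at least 20% of their UMIs from immunoglobulin genes, with a median of 753 Jchain, 26 Xbp1, 3 Sdc1 and only 2 Ms4a1 UMIs, and in 236 of them Ms4a1 was the only one of the barred genes above its limit. The 161 plasma cells and these 380 cells are called the wider set (541 cells). In it, 16.1% of cells had a Cdh5 UMI and 7.39% a Csf1r UMI. The wider set was defined after the data had been seen and is given beside the plasma cells wherever it bears on a result.

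Plasma cells were rare in every library but 1. They made up 0.0355, 0.171, 0.164 and 0.109% of kept cells in Y VEH (F1, F2, M1, M2; mean 0.120% ± 0.0627 SD, n = 4). In Y FIS the values were 0.102, 0.0141, 0.0203 and 0.0573% (0.0483% ± 0.0404 SD, n = 4). In O VEH they were 0.157, 0.0680 and 0.165% for F1, F2 and M1 (0.130% ± 0.0539 SD, n = 3). O FIS F1 had 70 plasma cells of 8243, or 0.849% (exact binomial 95% interval 0.663 to 1.07%), which is 43.5% of all plasma cells of the study. The other O FIS libraries had 0.0569, 0 and 0.0329% (F2, M1, M2). O FIS M1 had 0 of 10006 cells, which allows a share of up to 0.0300% when 3 counts are taken as the limit, and up to 0.0369% by the exact binomial interval. The O FIS mean of 0.235% ± 0.410 SD (n = 4) rests on F1 and is 0.0299% ± 0.0286 SD without it. The intervals and limits cover counting error only.

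**Figure D1:**
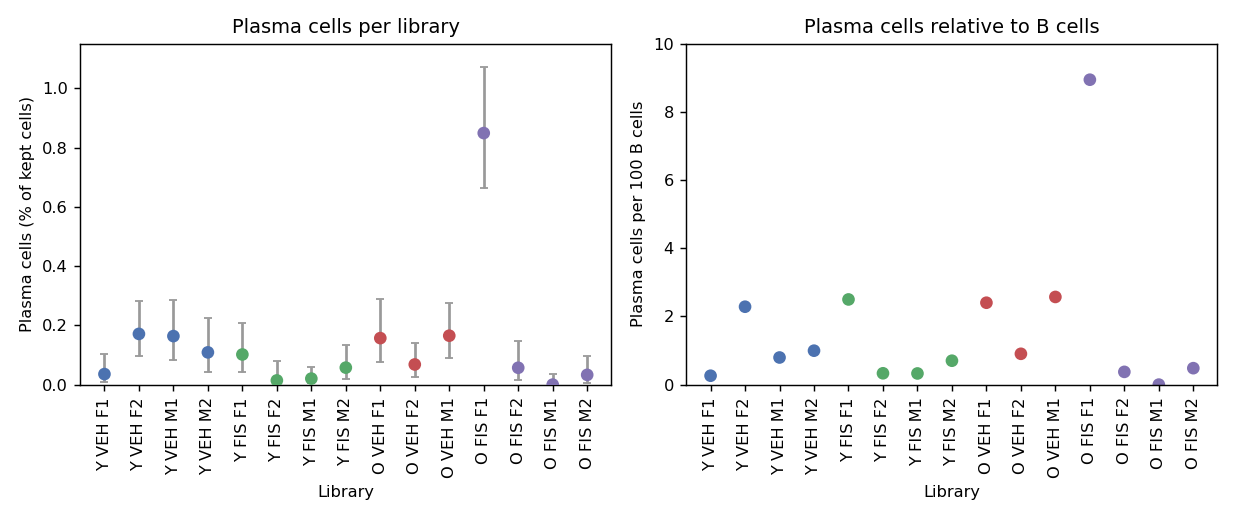
Plasma cells per library, as percent of kept cells with exact 95% binomial intervals (left) and per 100 B cells (right), 1 point per library in the order Y VEH, Y FIS, O VEH, O FIS. O FIS F1 lies at 0.849% and 8.95 per 100 B cells, while the other 14 libraries lie between 0 and 0.171%.

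No comparison of groups in the share of plasma cells passed its test. On the log2 scale, with 0.5 added to each cell count, O VEH exceeded Y VEH by 0.21 (exact permutation test over libraries, two-sided, p = 0.8), a direction that turned in the wider set (-0.080), with edgeR on cell counts (-0.016) and with single libraries left out (-0.26 to 0.61). O FIS lay below O VEH, at -1.16 (exact permutation p = 0.571), although its mean percent was higher through F1 and the difference was 0.47 in the wider set and 0.57 with edgeR on cell counts. Y FIS lay below Y VEH, at -1.35 (exact permutation p = 0.114), and the 4 values of Y FIS overlapped those of Y VEH. Old minus young came to 0.31 (p = 0.727, exact permutation within treatment) and female minus male to 0.76 (p = 0.460, exact permutation within group). Over these 5 comparisons no adjusted p was under 0.571, and the smallest p that 2 groups allow is 0.0286. Without O FIS F1 the old-minus-young difference turned to -0.35. In bulk shares such as these, fewer plasma cells and more of other cells cannot be told apart.

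Counted against B cells rather than against all cells, the picture was as uneven. There were 0.261, 2.29, 0.796 and 0.996 plasma cells per 100 B cells in Y VEH (mean 1.08 ± 0.859 SD) and 2.50, 0.332, 0.327 and 0.701 in Y FIS (0.965 ± 1.04 SD). O VEH had 2.40, 0.904 and 2.57 (1.96 ± 0.919 SD), and O FIS had 8.95, 0.374, 0 and 0.482 (2.45 ± 4.34 SD). The differences in log2 were 1.06 for O VEH minus Y VEH (exact permutation p = 0.2), -1.26 for O FIS minus O VEH (p = 0.457) and -0.17 for Y FIS minus Y VEH (p = 0.886), and no adjusted p was under 0.649. In the wider set O FIS F1 again led with 218 cells, or 2.64% of its kept cells, and the group means were 0.394% ± 0.161 SD (Y VEH), 0.149% ± 0.161 SD (Y FIS), 0.372% ± 0.162 SD (O VEH) and 0.867% ± 1.19 SD (O FIS). O FIS M1, with no plasma cell by the rule, had 26 cells of the wider set, 25 of which carried Ms4a1 at a median of 3 UMIs. The largest difference there, Y FIS minus Y VEH, was -2.07 on the log2 scale (exact permutation p = 0.0857, adjusted p = 0.389).

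Plasma cells were rich in RNA, and most of it was antibody RNA. A plasma cell had a median of 28573 UMIs (1884 to 59401) and 3172 detected genes, with 1.41% mitochondrial UMIs. Immunoglobulin genes supplied 58.1% of the UMIs at the median and from 21.5 to 79.0% in single cells, with library medians between 42.0% (Y VEH F1, 3 cells) and 71.7% (O FIS M2, 3 cells). The 2 O VEH and 2 Y VEH libraries with at least 10 plasma cells differed in these medians by 1.26 percentage points (exact permutation p = 1, smallest possible 0.333).

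The label was checked against marker genes. In the 9 libraries with at least 5 plasma cells, levels were taken as CPM of all UMIs that did not come from immunoglobulin genes, and set beside the B cells of the same library on the log2(CPM + 10) scale. Since Jchain, Mzb1 and Xbp1 chose the plasma cells, and Ms4a1, Cd79a and Jchain chose the B cells, these differences are a description and were not tested. Of 8816 measured genes, 8.8% were higher in plasma cells in all 9 libraries and 17.5% were lower in all 9, and the median difference of all genes was -0.29.

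The plasma cell identity genes stood far above B cells, 17 of 18 in all 9 libraries, with a median difference of 4.14. Of these, Jchain, Mzb1 and Xbp1 were higher through the rule. Prdm1 ran from 135 to 365 CPM against 0.442 to 32.0 CPM in B cells (3.61 ± 0.67 SD), Irf4 had a median of 599.8 against 139 CPM (1.97 ± 0.53 SD), and Xbp1, a gene of the rule, from 1147 to 3064 against 31.1 to 57.0 CPM (5.27 ± 0.42 SD). The ranges of plasma cells and B cells did not meet for any of these transcription factors. Sdc1 lay between 161 and 392 CPM against 0.323 to 5.54 CPM (4.64 ± 0.42 SD), and Tnfrsf17 between 142 and 436 against 0 to 2.10 CPM (4.91 ± 0.51 SD). Derl3, which encodes a derlin that moves misfolded proteins out of the ER, was at 378 to 1044 CPM against a median of 5.98 CPM (5.39 ± 0.58 SD). Ell2, an elongation factor for secretory heavy-chain transcripts, differed by 3.02, and Eaf2, its partner, by 4.22. The exception was Cd93, a surface protein of long-lived plasma cells, higher in 7 of the 9 libraries.

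The secretory machinery followed from folding to transport. Of the ER chaperones and folding enzymes, 22 of 24 were higher in all 9 libraries (median difference 2.81). Hspa5, the master ER chaperone BiP, had 1438 to 3622 CPM against 283 to 396 CPM in B cells (2.80 ± 0.58 SD), Hsp90b1 (GRP94) 3143 to 7631 against 239 to 359 CPM (3.94 ± 0.28 SD), and Creld2, an ER disulfide isomerase, 576 to 1391 against 19.5 to 63.1 CPM (4.55 ± 0.47 SD). Those not higher throughout were both ER oxidases, Ero1a in 8 of 9 libraries and Ero1b in 2 of 9 (-0.47). Of the genes for translocation into the ER and removal of signal peptides, 24 of 25 were higher in all 9 (median 2.46), among them Ssr4, a subunit of the translocon-associated complex (2349 to 6301 against 169 to 230 CPM, 4.28 ± 0.38 SD), with Sec11a in 7 of 9 as the exception. For ER-to-Golgi transport it was 17 of 19 (median 1.84), led by Lman1, a cargo receptor of the early secretory pathway (453 to 782 against 27.0 to 34.0 CPM, 3.95 ± 0.28 SD). Sec23b and Copz1 were higher in 8 of 9.

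Among 19 measured genes of ER-associated degradation and stress (of 21 listed), 16 were higher in all 9 libraries with a median difference of 2.32. Herpud1, a membrane protein of ER-associated degradation, had 614 to 2183 CPM against 54.6 to 119 CPM (3.83 ± 0.68 SD), and Ern1, encoding the sensor IRE1 that splices Xbp1 mRNA, had 113 to 541 against 5.93 to 14.8 CPM (3.91 ± 0.67 SD). The 3 that were not were Eif2ak3, the sensor PERK (0.03, higher in 5 of 9), Ddit3, its downstream factor CHOP (0.67, 8 of 9), and Ppp1r15a, the phosphatase subunit GADD34 (-0.50, 3 of 9). Atf4, the factor that acts after PERK (1.05), and Asns (3.37) and Chac1 (2.14), known as targets of ATF4, were higher in all 9.

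**Figure D2:**
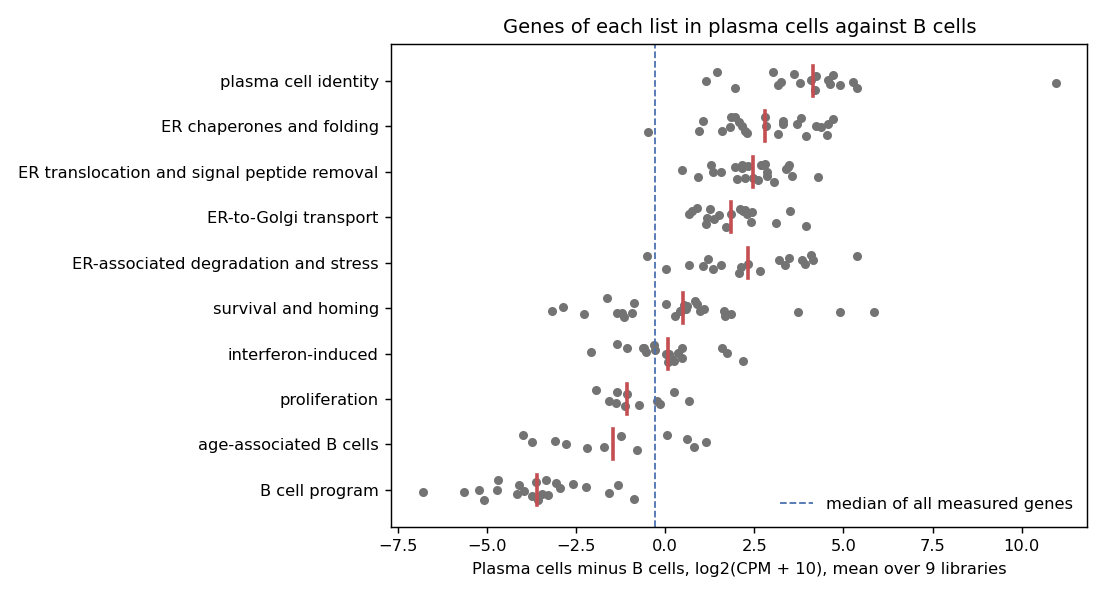
Difference between plasma cells and B cells for each measured gene of each list, log2(CPM + 10), mean over 9 libraries, 1 point per gene, with each list's median as a red bar and the median of all measured genes (-0.29) as a dashed line. The identity, chaperone, translocation, transport and degradation lists lie mostly above 1, and the B cell program lies below 0 throughout.

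The B cell program was lower for 22 of 22 measured genes in all 9 libraries (median -3.59, 23 listed). Ms4a1, one of them, is fixed by the rule, and Cd79a helped to choose the B cells. Pax5, the factor that holds B cell identity, was at 0 to 9.43 CPM against 375 to 722 CPM in B cells (-5.64), Ebf1 differed by -4.71 and Bach2, which represses Prdm1, by -4.09. Ciita, the switch of MHC class II expression, was at 0 in the plasma cells of all 9 libraries against 67.9 to 233 CPM in B cells, and H2-Aa differed by -4.68. Cd79a (-1.59) and Cd74 (-0.87) differed the least of those named here. Of 11 measured proliferation genes none was higher in all 9 (median -1.08), and Mki67 ran from 0 to 510 CPM (median 38.7) against 8.41 to 64.9 CPM.

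Of 26 survival and homing genes 8 were higher and 5 lower in all 9 libraries (median 0.51), beside 8.8% and 17.5% of all genes. Cd28, a costimulatory receptor that also sustains plasma cells, was at 51.6 to 208 CPM against 0 to 4.14 CPM (3.73 ± 0.72 SD), and Ly6c2 at 374 to 1845 against 1.61 to 69.4 CPM (5.86 ± 1.21 SD). Tnfrsf13b (TACI, 0.85 ± 0.18 SD), Selplg (1.66) and Il6st (1.08) were higher too. Lower were Tnfrsf13c, the BAFF receptor of B cells (-1.63), S1pr1 and Ccr7, receptors for leaving and entering lymphoid tissue (-3.18 and -2.27), their regulator Klf2 (-2.85) and Il6ra (-0.87). Cxcr4, which draws plasma cells to CXCL12, was higher in 5 of 9 (0.53) and Ccr10 in 7 of 9 (1.69). Of 19 measured interferon-induced genes, 3 were higher in all 9 (Bst2 1.74, Ifitm3 1.60, Zbp1 2.18) and 2 lower (Ifi203, Ifi208). Of the study's senescence and SASP genes (senescence-associated secretory phenotype) 3 of 12 were measured and none was higher in all 9. Of the 12 measured genes of age-associated B cells, 3 were lower in all 9 (Zeb2, Fcrl5, S100a6) and none higher. Of 11 measured B-1 cell genes 1 was higher and 2 were lower in all 9 (median -0.80).

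Markers of other cell types were looked for in the plasma cells. Cdh5, Cd3e, Csf1r and Ms4a1 are at 0 by the rule, and Adgre1, Siglech, the NK markers Ncr1 and Klrb1c and the mesothelial markers Msln and Upk3b were at 0 without being part of it. Summed marker levels lay between 76.4 and 125 CPM for ECs, 108 and 203 CPM for fibroblasts, 31.3 and 193 CPM for macrophages, 6.53 and 51.6 CPM for T cells, 0 and 145 CPM for neutrophils and 123 and 352 CPM for plasmacytoid dendritic cells over all 9 libraries, against 59332 to 115300 CPM for the plasma cell markers. The 2 erythrocyte genes were at 0 to 157 CPM in 7 libraries but at 1208 CPM in O VEH F1 and 23528 CPM in O FIS F1.

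The promoters of the ER genes were searched for the ER stress response element (ERSE), which ATF6 and XBP1 are known to bind, to show what sequence the raised chaperones share. The letters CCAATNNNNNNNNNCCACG were searched on both strands from 250 bases before to 50 after each start in RefSeq promoters of GRCm38.p6, and were found in 35 of 27025 promoters (0.130%). Of the 24 chaperone genes 22 had a promoter in the table, and 8 of these held it (36.4%), in Calr, Canx, Creld2, Dnajc3, Ero1b, Hsp90b1, Hspa5 and Pdia6. It was in 2 of 18 promoters of the degradation and stress list (Derl3, Syvn1) and in none of the 20 and 16 of the translocation and transport lists. The related ERSE-II, whose last letters are those of ERSE, was in 10 promoters in all (0.0370%), Dnajb11 and Herpud1 among them. A match describes the letters and not a bound site. Ero1b held the ERSE and was not higher in plasma cells. The 4 promoters below belong to genes described above, with the fixed letters of each ERSE in capitals. Hspa5 lies at chr2:34771840-34772139 (plus strand, ERSE from base -65), Hsp90b1 at chr10:86705395-86705694 (minus strand, with 2 matches, at -212 and, reversed, at -107), Creld2 at chr15:88819396-88819695 (plus strand, 1 reversed match) and Derl3 at chr10:75893148-75893447 (plus strand, reversed at -156).
Hspa5: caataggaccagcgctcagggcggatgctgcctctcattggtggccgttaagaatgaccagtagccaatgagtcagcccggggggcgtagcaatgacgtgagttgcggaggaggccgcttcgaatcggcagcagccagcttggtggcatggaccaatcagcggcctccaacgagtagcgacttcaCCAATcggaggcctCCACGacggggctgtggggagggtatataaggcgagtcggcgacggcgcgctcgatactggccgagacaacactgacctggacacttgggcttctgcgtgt
Hsp90b1: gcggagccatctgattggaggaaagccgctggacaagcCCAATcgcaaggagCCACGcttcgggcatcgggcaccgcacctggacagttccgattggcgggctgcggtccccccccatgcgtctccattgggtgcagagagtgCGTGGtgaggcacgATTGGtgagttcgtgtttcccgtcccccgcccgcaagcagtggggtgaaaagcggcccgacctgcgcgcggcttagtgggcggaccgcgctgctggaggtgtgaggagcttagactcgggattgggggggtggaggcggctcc
Creld2: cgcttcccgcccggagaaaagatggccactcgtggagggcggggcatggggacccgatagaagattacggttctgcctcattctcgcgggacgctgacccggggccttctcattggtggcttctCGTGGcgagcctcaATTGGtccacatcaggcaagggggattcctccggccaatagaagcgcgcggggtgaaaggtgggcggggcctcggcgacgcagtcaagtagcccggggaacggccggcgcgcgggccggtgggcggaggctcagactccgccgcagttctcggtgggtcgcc
Derl3: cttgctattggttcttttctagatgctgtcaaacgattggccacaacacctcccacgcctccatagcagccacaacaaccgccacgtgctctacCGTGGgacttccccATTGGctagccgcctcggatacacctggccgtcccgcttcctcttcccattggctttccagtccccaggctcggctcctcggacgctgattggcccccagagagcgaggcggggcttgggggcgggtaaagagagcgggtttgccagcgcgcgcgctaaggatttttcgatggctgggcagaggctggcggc

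By their heavy-chain RNA, most plasma cells were of class IgM. The class of a cell was that of its leading heavy-chain constant gene where this had at least 10 UMIs and over 70% of heavy-chain UMIs. All 161 plasma cells could be classed, and the leading gene held a median of 99.9% of the heavy-chain UMIs. IgM cells numbered 120 (74.5%), IgG cells 33 (20.5%, exact 95% interval 14.5 to 27.6%) and IgA cells 8 (4.97%). The interval pools the cells of all libraries and leaves out differences between libraries. IgG shares of single libraries ran from 0 to 60.0% (3 of 5 cells in Y FIS M2). The IgG cells were 17 of Ighg2b, 8 of Ighg2c, 5 of Ighg1 and 3 of Ighg3. Of the light chains, 145 cells were kappa and 16 lambda, or 9.94%, with Iglc1 in 5 cells of O VEH F1 and O VEH M1 and Iglc2 in 11 cells of O FIS F1, Y FIS F1 and Y VEH M2.

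IgG cells were 6 of 37 in Y VEH (16.2%), 3 of 16 in Y FIS (18.8%), 3 of 31 in O VEH (9.68%) and 21 of 77 in O FIS (27.3%). The O FIS figure came from F1, with 20 of its 70 cells, and the old libraries without it had 4 of 38 (10.5%). Among the 2 O VEH and 2 Y VEH libraries with at least 10 plasma cells, O VEH minus Y VEH came to 11.2 percentage points for IgM, -8.33 for IgA and -2.86 for IgG (exact permutation p = 0.667, 1 and 0.667, with 0.333 the smallest possible). In the wider set 540 cells could be classed, with 408 IgM (75.6%), 95 IgG (17.6%, exact 95% interval 14.5 to 21.1%), 36 IgA (6.67%) and 1 IgE. O FIS F1, the largest library of the wider set, held 31 of the 36 IgA cells, or 14.3% of its classed cells. Y VEH F1 had the same share, with 2 of 14 cells. Among plasma cells by the rule, IgA was 5 of 70 in O FIS F1 and 2 of 12 in Y VEH M1. IgG was 31 of 165 in young libraries (18.8%) and 64 of 375 in all old libraries (17.1%). Without O FIS F1 it was 11 of 158 in old libraries (6.96%), but the libraries varied widely. Y FIS M2 had 12 IgG of 16, while all cells of Y FIS F1 (25), O FIS F2 (25) and O FIS M1 (26) were IgM. Old minus young was -18.1 percentage points for IgG (exact permutation p = 0.156) and 17.9 for IgM (p = 0.204), with adjusted p of 0.931, and without Y FIS M2 the IgG difference was 0.68.

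**Figure D3:**
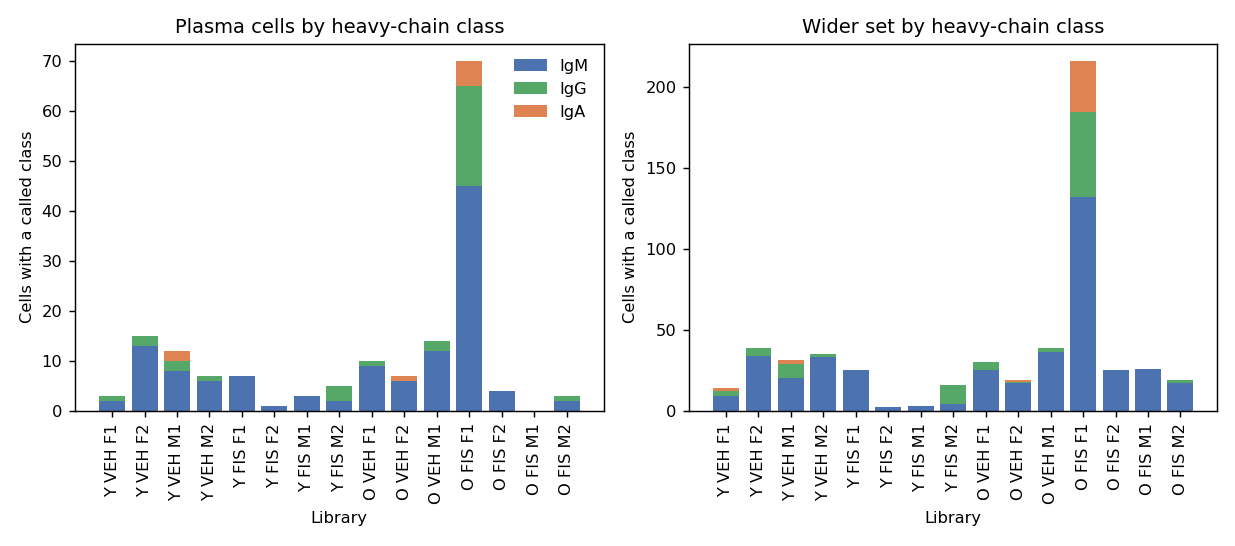
Cells of each heavy-chain class per library, plasma cells by the rule (left) and the wider set (right), as stacked bars from 0. IgM is the main class in most libraries, O FIS F1 holds 31 of the 36 IgA cells of the wider set, and Y FIS M2 has 12 IgG cells of 16.

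Pooled over libraries, IgG plasma cells had 66.7% of their UMIs from immunoglobulin genes at the median, IgM cells 57.1% and IgA cells 50.6%. O FIS F1 held 20 of the 33 IgG and 5 of the 8 IgA cells, and its own medians were 67.9, 55.9 and 51.3%. The order was not the same in every library, and in Y FIS M2 of the wider set the 12 IgG cells had 47.3% and the 4 IgM cells 59.1%. The difference between classes was not tested. Jchain, which polymeric IgM and IgA need and IgG does not, had a median of 892 UMIs in IgM cells, 1271 in IgA cells and 370 in IgG cells. It stayed above the rule's minimum in all IgG cells because the rule asked for it, so these values are a description.

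The V genes give a second view of the same cells. A V gene was called where it had at least 5 UMIs and over 70% of the cell's heavy or light V UMIs, which gave a heavy V in 143 plasma cells, a light V in 97 and both in 89, in 57 different pairs. V genes are not clones, since the junction was not read and closely related V genes can share reads. Some light V calls went against the light-chain constant gene. Iglv1 was called with Ighv14-4 in 1 plasma cell of Y FIS M2, where all 5 plasma cells were kappa. Such calls are part of the pairs counted here. Within a library 38 of 676 pairs of cells (5.62%) had the same V pair, and between libraries 34 of 3240 (1.05%). In the wider set the shares were 697 of 6861 (10.2%) and 1307 of 41655 (3.14%).

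The pair found most often was Ighv11-2 with Igkv14-126, a known B-1 cell pair whose antibodies bind phosphatidylcholine. It was in 9 of 89 plasma cells (10.1%), all IgM, from 5 libraries (4 in O FIS F1, 2 in O FIS M2 and 1 each in O VEH M1, Y VEH F1 and Y VEH M2). Ighv11-2 itself was in 15 of 143 plasma cells from 7 libraries, and all 15 were IgM. The other classic phosphatidylcholine pair, Ighv12-3 with Igkv4-91, was in 4 plasma cells, all IgM and in O FIS F1. By contrast Ighv1-76 with Igkv10-96 was in 5 plasma cells, all Ighg2b and in O FIS F1, and the 7 plasma cells with Ighv1-76 held no IgM cell.

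These V exons are shown because the 3 pairs join the most plasma cells of a library. The last 300 bases are printed of Ighv11-2, Ighv12-3, Ighv1-76 and Igkv4-91, whose exons have 305 to 310 bases, and the whole exon of the other two. All are from GRCm39 with the GENCODE vM39 annotation, 5′ to 3′ on the gene's strand, with capitals from the last in-frame cysteine codon to the exon's end, where the joined sequence begins. The stretches printed lie at chr12:114011861-114012160 (Ighv11-2), chr12:114330141-114330440 (Ighv12-3) and chr12:115811501-115811800 (Ighv1-76), all on the minus strand in the heavy-chain locus. Igkv14-126 lies at chr6:67873329-67873626 (plus strand), Igkv4-91 at chr6:68745539-68745838 (minus strand) and Igkv10-96 at chr6:68608947-68609244 (minus strand) in the kappa locus.
Ighv11-2: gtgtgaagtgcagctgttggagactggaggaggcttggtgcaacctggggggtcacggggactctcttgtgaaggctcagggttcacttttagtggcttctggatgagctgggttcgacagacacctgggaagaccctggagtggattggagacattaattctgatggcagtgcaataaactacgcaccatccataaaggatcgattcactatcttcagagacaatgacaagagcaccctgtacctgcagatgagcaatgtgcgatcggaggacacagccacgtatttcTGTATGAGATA
Igkv14-126: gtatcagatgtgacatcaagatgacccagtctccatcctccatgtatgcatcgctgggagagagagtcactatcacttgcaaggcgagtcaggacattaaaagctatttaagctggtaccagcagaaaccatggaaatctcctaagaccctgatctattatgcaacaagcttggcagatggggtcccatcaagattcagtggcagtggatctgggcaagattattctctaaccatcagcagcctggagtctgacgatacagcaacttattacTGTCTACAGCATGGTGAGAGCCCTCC
Ighv12-3: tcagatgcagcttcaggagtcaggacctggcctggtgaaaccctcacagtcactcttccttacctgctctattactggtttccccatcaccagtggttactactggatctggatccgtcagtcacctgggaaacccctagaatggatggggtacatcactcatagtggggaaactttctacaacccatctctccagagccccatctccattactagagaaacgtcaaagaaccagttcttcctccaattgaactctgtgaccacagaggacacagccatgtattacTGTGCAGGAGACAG
Igkv4-91: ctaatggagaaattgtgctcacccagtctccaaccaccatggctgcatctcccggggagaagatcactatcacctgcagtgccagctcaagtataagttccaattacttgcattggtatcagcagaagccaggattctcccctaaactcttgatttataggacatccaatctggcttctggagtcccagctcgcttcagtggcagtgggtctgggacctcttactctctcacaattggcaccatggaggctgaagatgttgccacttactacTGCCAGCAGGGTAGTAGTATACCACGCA
Ighv1-76: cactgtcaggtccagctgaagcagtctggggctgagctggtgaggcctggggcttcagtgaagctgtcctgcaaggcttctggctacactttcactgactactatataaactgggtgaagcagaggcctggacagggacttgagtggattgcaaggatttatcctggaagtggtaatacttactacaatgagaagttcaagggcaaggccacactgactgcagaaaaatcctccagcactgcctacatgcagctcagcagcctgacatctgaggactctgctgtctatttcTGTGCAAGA
Igkv10-96: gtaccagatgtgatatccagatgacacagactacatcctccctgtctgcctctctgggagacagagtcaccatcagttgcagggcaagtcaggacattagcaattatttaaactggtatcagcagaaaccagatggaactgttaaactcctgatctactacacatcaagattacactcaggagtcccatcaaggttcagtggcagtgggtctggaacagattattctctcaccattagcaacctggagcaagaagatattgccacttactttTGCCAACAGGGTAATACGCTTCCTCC

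In the wider set the phosphatidylcholine pairs were spread over more libraries and at very different shares. Ighv11-2 with Igkv14-126 was in 53 of 312 cells with both V genes (17.0%), in 9 libraries, and Ighv11-2 was in 61 of 469 cells with a heavy V, all IgM, in 11 libraries. In O FIS M1 it was in 22 of 25 cells, and 232 of 300 pairs of cells (77.3%) shared their V pair there. It was in 6 of 11 cells of Y VEH F1, 6 of 12 of O FIS M2, 3 of 12 of O FIS F2 and 10 of 97 of O FIS F1. Ighv12-3 with Igkv4-91 was in 30 cells (9.62%) of 6 libraries, 22 of them in O FIS F1. Repeated pairs depended on the limit for a call. At over 50% of V UMIs, O FIS F1 had 20 cells of Ighv1-19 with Iglv2 and 11 with Iglv1 (3 and 2 at over 70%). It then had 29 cells of Ighv12-3 with Igkv4-91. By constant gene, the lambda cells of O FIS F1 were 31 of Iglc2 and 0 of Iglc1 or Iglc3. The pairs of Ighv1-19 with Iglv2 and with Iglv1 may therefore not be separate. The V genes of B cells were called at a lower limit of 2 UMIs, so their shares are not on a par with those above. Both V genes were called in 135 of 10722 B cells, 37 of them in Y VEH M1. Of the 135, 6 had Ighv11-2 with Igkv14-126 (4.44%) and 4 had Ighv12-3 with Igkv4-91 (2.96%). A UMI of Ms4a1 was present in 68.9% of Ighv11-2 cells, 63.8% of Ighv12-3 cells and 58.1% of all IgM cells of the wider set. The share of cell pairs with 1 V pair differed between old and young by 6.62 percentage points over 6 and 5 libraries (exact permutation p = 0.733).

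**Figure D4:**
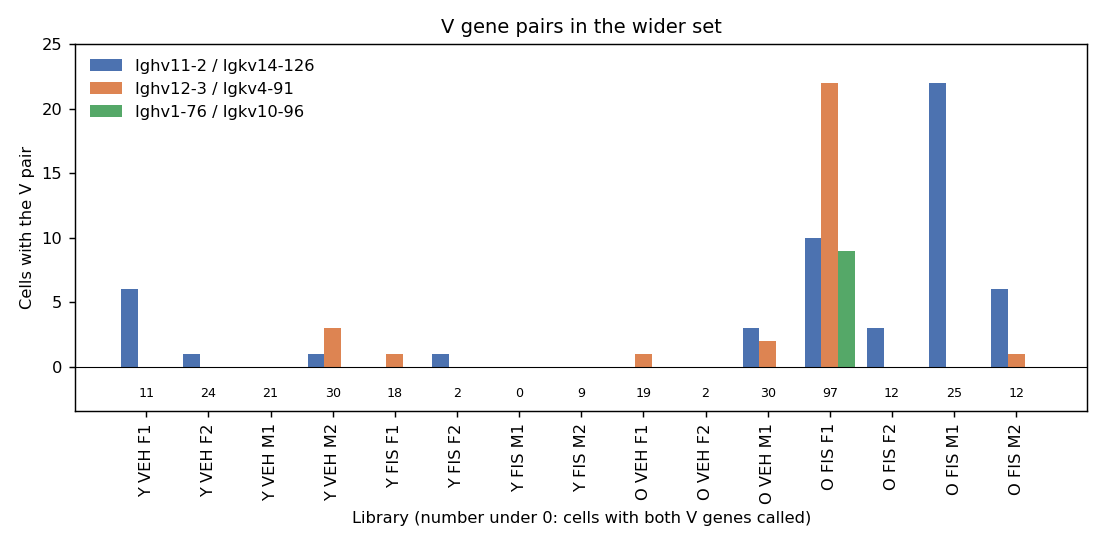
Number of wider-set cells with each of the 3 named V pairs, per library, with the number of cells that had both V genes called given under 0. O FIS M1 has 22 of 25 cells with Ighv11-2 and Igkv14-126, and O FIS F1 has some cells of each of the 3 pairs.

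IgG and IgM cells of the same aortas differed in many RNAs outside the immunoglobulin genes. The comparison used the wider set, because only 1 library had 10 plasma cells by the rule in both classes, and its 4 libraries with at least 5 cells of each class (Y VEH F2, Y VEH M1, O VEH F1 and O FIS F1, with 5, 9, 5 and 53 IgG and 34, 20, 25 and 132 IgM cells). With library as a block and immunoglobulin genes left out, edgeR's quasi-likelihood test found 92 of 5489 genes to differ (1.68%; DARs, differentially abundant RNAs with Benjamini-Hochberg adjusted p under 0.05 and log2 fold change beyond 0.25), with 27 higher in IgG cells (0.492%) and 65 lower (1.18%). Of the 92, 82 went the same way in all 4 libraries. The test called them from these same libraries, so this count describes the calls and is no separate check. Xbp1 (higher) and Jchain (lower), which chose the cells, are counted in these numbers. The classes also differed in make-up, with an Ms4a1 UMI in 49.5% of IgG and 58.1% of IgM cells of the whole wider set. All 61 cells with Ighv11-2 and all 47 with Ighv12-3 were IgM. The part of these differences in the DARs was not tested. O FIS F1 supplied most IgG cells, and without it 4 DARs were left, all higher in IgG cells, namely Slpi, Pon3, Fut8 and Epcam.

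Slpi, which encodes a secreted inhibitor of leukocyte proteases, was the clearest difference (gene at chr2:164195990-164231015, minus strand, GRCm39). In the order of libraries above it had 1445, 1741, 2257 and 2085 CPM in IgM cells and 22647, 20341, 14168 and 58426 CPM in IgG cells, a log2 fold change of 3.75 ± 0.26 (SE, edgeR adjusted p = 3.08e-06). The 2 classes did not overlap in these libraries, and without O FIS F1 the change was 3.42 ± 0.25 (SE, edgeR adjusted p = 0.000454). Pon3, a lipoprotein-associated lactonase, had 193, 220, 205 and 146 CPM in IgM cells and 600, 613, 694 and 674 CPM in IgG cells (1.80 ± 0.20 SE, edgeR adjusted p = 0.000699, and 1.65 without O FIS F1). Fut8, the enzyme that adds the core fucose to antibody glycans, went from 587, 781, 499 and 516 CPM to 1492, 2259, 1304 and 1125 CPM (1.34 ± 0.18 SE, edgeR adjusted p = 0.00193). Epcam, an adhesion molecule, went from 72.4, 52.9, 144 and 296 CPM to 223, 210, 944 and 647 CPM (1.80 ± 0.27 SE, edgeR adjusted p = 0.00502). Pon3, Fut8 and Epcam were named after their values were seen.

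Among the other DARs with the largest increase in IgG cells, Faxc had at most 8.14 CPM in IgM cells and 27.8 to 53.7 CPM in IgG cells (4.27 ± 0.92 SE, edgeR adjusted p = 0.0326). Vpreb3, a B lineage protein that binds light chains in the ER, had 17.1, 1637, 83.3 and 187 CPM in IgG cells against 5.36 to 48.8 CPM (3.64 ± 0.43 SE), and Y VEH M1 stood far above the others. Without O FIS F1 it was at 3.66 with an edgeR adjusted p of 0.134. Rsph1 and Stac2 rose by 3.08 ± 0.53 and 3.03 ± 0.68 (SE).

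Of the RNAs lower in IgG cells, Ptpn6, which encodes the inhibitory phosphatase SHP-1 and was named after its values were seen, had 145, 212, 165 and 128 CPM in IgM cells and 34.3, 27.4, 0 and 13.8 CPM in IgG cells (-3.15 ± 0.39 SE, edgeR adjusted p = 0.00131). Isg15, an interferon-induced ubiquitin-like protein, had 129, 155, 216 and 53.5 CPM against 17.1, 9.15, 0 and 9.20 CPM (-3.25 ± 0.45 SE, edgeR adjusted p = 0.00315). Only 20.3% of wider-set cells had an Isg15 UMI. In plasma cells by the rule its median was 0 and its highest value 52 UMIs, so summed levels can rest on few cells. Btla, an inhibitory receptor named after its values were seen, had 67.0, 138, 86.6 and 68.4 CPM against 0, 36.6, 0 and 10.7 CPM (-2.68 ± 0.46 SE). Ifi213 (-3.48 ± 0.78 SE) and Zcwpw1 (-3.15 ± 0.42 SE) fell too. Agbl1 and Cox6a2 were at 0 in the IgG cells of all 4 libraries and at 0 to 98.1 and 0 to 167 CPM in IgM cells, so their fitted folds are no bound. Without O FIS F1, Ptpn6, Isg15 and Btla were not called (edgeR adjusted p = 0.134, 0.0701 and 0.181 at changes of -3.06, -4.18 and -2.73), and the other four fell under the filter on low counts and were not tested.

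Among the 18 identity genes, Xbp1, with 2195, 2022, 1873 and 2370 CPM in IgM cells and 2640, 2945, 4524 and 4660 CPM in IgG cells, and Jchain, with 100760, 77351, 33980 and 80214 against 78141, 52370, 14335 and 27056 CPM, belong to the rule and are given as values only. Of the others, 2 were called, beside 1.68% of all genes. Tent5c rose by 0.78 ± 0.18 (SE), and Txndc5, an ER disulfide isomerase, fell from 3082, 3339, 2814 and 4024 CPM to 720, 933, 1693 and 1875 CPM (-1.42 ± 0.22 SE, edgeR adjusted p = 0.00596). Txndc5 was the only DAR among 24 chaperones, and none was found among 25 translocation, 19 transport and 19 degradation and stress genes. In the survival and homing list Ly6c2 rose (1.16 ± 0.22 SE, edgeR adjusted p = 0.0158) while Cd28 (-1.70 ± 0.33 SE, edgeR adjusted p = 0.0193) and Bcl2, which blocks cell death (-1.67 ± 0.33 SE, edgeR adjusted p = 0.0210), fell, out of 21. Without O FIS F1 all 3 kept their direction, at 1.34, -1.28 and -1.09, but not their call (edgeR adjusted p = 0.146, 0.257 and 0.272). Among the plasma cells by the rule in O FIS F1, Ly6c2 went the other way, with 862 CPM in IgG and 1190 CPM in IgM cells (without TMM scaling).

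Smaller counts came from the other lists. The B cell program had 1 DAR of 14, Bach2, lower in IgG cells (-1.67 ± 0.39 SE), and proliferation had 2 of 9, Hmgb2 and Tubb5, both lower (-1.58 and -1.37). In the plasma cells by the rule in O FIS F1 both were higher in IgG cells, Hmgb2 at 108 against 42.1 CPM and Tubb5 at 148 against 85.9 CPM (without TMM scaling). Of 14 interferon-induced genes Zbp1 rose (1.17) and Isg15 fell. The lists of age-associated B cells and B-1 cells had none of 9 and 6, and of 4 tested senescence and SASP genes none was called. The median of all genes was -0.01. Ribosomal protein genes, a group picked after the values were seen, were called lower for 23 of 80, beside 1.18% of all genes, and had a negative change for 79 of 80, with a median of -0.63. Without O FIS F1 none of the 23 was called, with edgeR adjusted p of 0.134 or more.

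**Figure D5:**
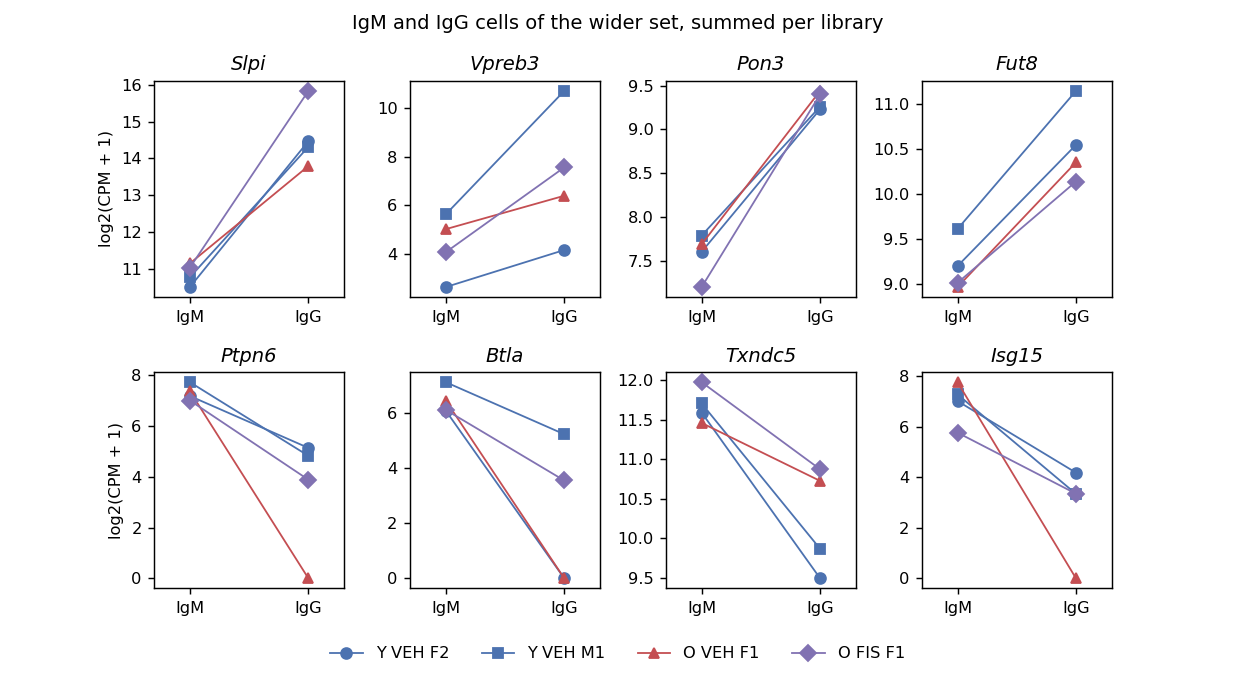
Levels of 8 named RNAs in IgM and IgG cells of the wider set, log2(CPM + 1) with immunoglobulin genes left out, 1 point per library and class, lines joining the classes of a library. Slpi and Pon3 lie higher in IgG cells in all 4 libraries, and Ptpn6 and Txndc5 lie lower.

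The plasma cells chosen by the strict rule showed the same order for most DARs in the library that could be examined. Their levels, and all others in this paragraph, are CPM of non-immunoglobulin UMIs without the TMM scaling used for the 4 libraries above. In O FIS F1 the IgG plasma cells had 35773 CPM of Slpi against 2990 in IgM plasma cells, 740 against 176 CPM of Pon3, 1979 against 3432 CPM of Txndc5 and 8.97 against 130 CPM of Ptpn6, and 88 of the 92 DARs went the same way there, all but Ly6c2, Hmgb2, Tubb5 and S100a11. These cells are part of the wider set and so no separate check. Slpi was not only an IgG transcript. The 31 IgA cells of O FIS F1 had 132780 CPM, with a UMI in 100% of the cells and a median of 2331 UMIs, against 55490 CPM in its 53 IgG cells (92.5%, median 103 UMIs) and 1854 CPM in its 132 IgM cells (66.7%, median 2 UMIs). Among ECs of that library 26.1% had a Slpi UMI. Over all libraries the share of ECs ran from 1.00 to 72.4%, with the highest in Y VEH F1, followed by O FIS F1, O FIS M2 (19.4%) and Y FIS F2 (13.3%), and it was 5.23, 1.66 and 2.96% in Y VEH F2, Y VEH M1 and O VEH F1. IgG cells other than those with Ighv1-76 were as high (67679 CPM, 40 cells), as were the 12 IgG cells of Y FIS M2 (63731 CPM), while the 25 IgM cells of Y FIS F1 had 27.5 CPM. Levels were lower in the 3 IgG cells of O VEH M1 (1822 CPM, IgM cells 702) and the 3 of Y VEH F1 (1949 CPM, IgM cells 229). The 4 IgM cells of Y FIS M2 had 4836 CPM. Over all libraries, IgG plasma cells by the rule had a median of 4 Slpi UMIs and IgM plasma cells 2. With 1 library for IgA, no test was made.

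Age and fisetin were tested in the RNA of plasma cells summed per library, with group and sex as terms. Only 5 libraries had at least 10 plasma cells (Y VEH F2 and M1, O VEH F1 and M1, O FIS F1), and fisetin could not be tested in them. With group and sex as terms, these libraries left 1 residual degree of freedom. O FIS F1, alone in its group, adds nothing to the spread. The SEs and p-values of this fit therefore measure the spread between libraries poorly. O VEH against Y VEH gave 12 DARs of 3557 genes (0.337%; 3 higher, 9 lower) and old against young gave 14 (0.394%; 5 higher, 9 lower). These counts were not stable. For O VEH against Y VEH there were 52 DARs with DESeq2 size factors, 102 without a filter on low counts, 23 with immunoglobulin genes left out, 3 without a sex term, 0 in libraries with at least 5 cells and 25 without O FIS F1, and for old against young the count ran from 0 (without a sex term) to 80 (without a filter). Old against young set both O VEH libraries and the fisetin-treated O FIS F1 against vehicle-treated young libraries, so age and treatment are mixed in it. V genes made up 11 of the 12 and 13 of the 14. The exceptions were Ighg1 and Hbb-bt, a beta globin of erythrocytes. Ighg1, called lower in O VEH, was at 7546 CPM in Y VEH M1 and at 0 in Y VEH F2 and both O VEH libraries. Only 1 plasma cell of Y VEH M1 was of class Ighg1, and the old library O FIS F1 had 10928 CPM. Hbb-bt was at 2.71 and 3.36 CPM in the young libraries and 71.0, 14.2 and 633 CPM in the old ones (5.38 ± 0.61 SE, edgeR adjusted p = 0.0435). It was called in old against young alone. The erythrocyte markers given above moved with Hbb-bt, and their part in it was not tested. No other listed gene was called in either comparison, and in the ER lists the median change of old against young lay between -0.12 (translocation) and 0.32 (degradation and stress).

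The wider set allowed 13 libraries and all 4 groups, over 6325 genes. O VEH against Y VEH gave 2 DARs (0.0316%), old against young 3 (0.0474%), and both O FIS against O VEH and Y FIS against Y VEH gave 0 (0.0%), with 192 and 347 genes at an unadjusted p under 0.05 and 24 and 28 DARs by DESeq2. The 3 old-against-young DARs were all higher in old mice and stand outside the fixed lists. C130026I21Rik, named Sp140l2 in GENCODE vM39 and a relative of the nuclear body protein Sp140 (chr1:84970411-85248536, minus strand, GRCm39), had 24.7 to 65.3 CPM in the 6 young and 117 to 194 CPM in the 7 old libraries (2.02 ± 0.19 SE, edgeR adjusted p = 0.000942). The genes listed only as ENSMUSG00000079190 (2.91 to 16.9 against 23.4 to 50.1 CPM, 2.35 ± 0.30 SE, edgeR adjusted p = 0.00995) and ENSMUSG00000079808 (3.86 to 16.9 against 26.3 to 70.3 CPM, 2.13 ± 0.29 SE, edgeR adjusted p = 0.0141) had no overlap between the ages either. Near-identical gene copies can share reads in these families, so the assignment to a single gene is uncertain.

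The plasma cells by the rule had C130026I21Rik at a median of 38.6 CPM (22.1 to 69.0) in 5 young and of 145 CPM (up to 187) in 4 old libraries with at least 5 cells, and no overlap. ENSMUSG00000079190 was at 0 to 10.3 against 17.7 to 52.5 CPM, while ENSMUSG00000079808, at 0 to 32.1 against 26.7 to 83.1 CPM, overlapped between the ages. The rise was not particular to plasma cells. In B cells, which the rule left out, C130026I21Rik had 34.5 to 73.4 CPM in 8 young and 229 to 704 CPM in 7 old libraries, a log2 difference of 2.88 (exact permutation p = 0.000408, the smallest possible). The levels in this paragraph are CPM of all UMIs without TMM scaling. Immunoglobulin UMIs are part of that total, so levels in plasma cells and B cells cannot be set side by side. ENSMUSG00000079190 and ENSMUSG00000079808 had differences of 3.90 and 5.15 in B cells at the same p (exact permutation). These genes had been picked for a difference between the ages in the same libraries, so the p-values in B cells are no separate check.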

How the data were processed

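Single-cell 3' RNA-seq was done on 15 aorta libraries. The authors made the deposited UMI counts with Cell Ranger 8.0.1 on the GRCm39 reference, and they hold whole-number counts per gene and cell for called cells, with no normalization. Seurat 5.2.0, which the study used downstream, was not needed here. Cell filters of the study (200 to 7000 genes, at most 25% mitochondrial UMIs) were applied, and the rule for plasma cells was then applied to the counts. The members, gene lists and markers were chosen with earlier results of these data known. Libraries held 49964001 to 74587567 UMIs. Intervals for shares are exact binomial (95%) and cover counting error only, as does the limit of 3 counts behind a count of 0. For cells pooled over libraries they leave out differences between libraries.

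Shares were compared by two-sided exact permutation tests over libraries, on log2 of the share with 0.5 added to each count, with Benjamini-Hochberg adjustment over 5 comparisons. Counts summed per library (at least 10 cells, or 5 per class) went into edgeR's quasi-likelihood test with TMM normalization and filterByExpr. A DAR passed 0.05 (adjusted p) and 0.25 (absolute log2 fold change). CPM against B cells used a pseudocount of 10, and genes with a mean of at least 10 CPM in plasma or B cells counted as measured. Nothing between plasma cells and B cells was tested, since the rule parts them. Doublets were called with Scrublet in scanpy at an expected rate of 0.08 and were kept in the counts (without them is an alternative). It marked 0 to 2 cells in 3 libraries and so had not worked there.

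The genes named were every gene of the fixed lists, described by list, per contrast the 5 DARs that rose most and the 5 that fell most (V, D and J genes counted but not ranked), the constant genes, and the 3 V pairs that join the most plasma cells of a library. Others are named as chosen after their values were seen. V exons came from the GRCm39 genome with GENCODE vM39, promoters from RefSeq (GRCm38.p6). Alternatives were another normalization (DESeq2 size factors), no filter, DESeq2, no sex term, other limits, a block for replicate number, a fit on the compared groups alone and each library left out. Those on the wider set were added after the data had been seen. Scripts were tested on simulated data with known changes. Same-numbered libraries of the same sex did not deviate together (15 pairs, r between -0.206 and 0.162, 1 over 0.1), so they were not paired. The deviations were taken from means of few libraries per group, so a pairing is not excluded. Libraries are separate pools of mice by label, and p-values measure the spread between them. The fit on libraries with at least 10 plasma cells leaves little spread to measure. Tools were Python 3.11.15, numpy 2.4.6, pandas 2.3.3, scipy 1.17.1, matplotlib 3.10.9, scanpy 1.11.5, edgeR 4.0.16, limma 3.58.1 and DESeq2 1.42.0 in R 4.3.3.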

Additional observations from a re-analysis of the deposited data

Results flagged for a closer look

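In each group of 4 libraries, the highest and the lowest value were compared with the rest by Dixon's gap test, and chance alone marks about 1 in 20 groups. Of 19 groups tested 6 were past the limit of 0.829. Library O FIS F1 stood apart from the other O FIS libraries in plasma cells as percent of kept cells (0.849%, nearest 0.0569%), in plasma cells per 100 B cells (8.95, nearest 0.482), in the wider set as percent of kept cells (2.64%, nearest 0.355%) and in the IgA share of the wider set (14.3%, nearest 0%). These 4 values come from the same cells of the same library and are not separate observations. Outside the O FIS group, Y VEH F1 had an IgA share of 14.3% too. Library Y VEH F1 stood apart from the other Y VEH libraries in the share of wider-set cell pairs with the same V pair (27.3%, nearest 3.45%) and in the share of wider-set cells with Ighv11-2 (42.9%, nearest 3.03%), which rest on 11 cells with both V genes and 14 cells with a heavy V.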

How the results depend on the processing

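Of 136 alternatives 101 kept direction and side of the threshold (within 1.5 times for a count), as did all but 46 of 385 values with a library left out; where they did not, the cause was not tested. In the wider set (chosen after seeing the data) the plasma cell share of O VEH minus Y VEH was -0.080 in log2, with edgeR on cell counts -0.016 and with the replicate block -0.30; O FIS minus O VEH was 0.47, 0.57 and 0.068, and 0.10 as percent. The IgA difference of old minus young was 3.17 with 5 or more cells and 0.071 in the wider set, and the immunoglobulin share differed there by -1.28 (O VEH minus Y VEH) and -0.99 (old minus young).

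Counts of DARs in plasma cells moved most. For O VEH against Y VEH (12) they were 52 with DESeq2 size factors, 102 without a filter, 23 without immunoglobulin genes, 3 without a sex term, 3 by DESeq2, 0 with 5 or more cells, 25 with only the groups compared, 21 with 5 or more cells and the replicate block, 2 in the wider set and 25 without O FIS F1. For old against young (14) they were 44, 80, 0 without sex, 0 with 5 or more cells, 25 for the groups compared, 3 in the wider set and 25 without O FIS F1. In the wider set O VEH against Y VEH gave 0 with the replicate block, 0 with DESeq2 size factors and 35 by DESeq2, old against young 1 with the block and 28 by DESeq2, Y FIS against Y VEH 28 and O FIS against O VEH 24 by DESeq2. The block moved the 3 old-against-young calls to 1, and whether the numbers pair the libraries was not settled. IgG against IgM (92) gave 227 without a filter and 140 by DESeq2.

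With each library left out, the share differed by -0.26 to 0.61 (O VEH minus Y VEH), -2.46 to 0.011 (O FIS minus O VEH), -1.82 to -1.01 (Y FIS minus Y VEH) and -0.35 to 0.89 (old minus young), and per B cell by -0.76 to 0.29 (Y FIS minus Y VEH) and -0.064 to 0.88 (old minus young). In the wider set old minus young lay between -0.81 and 36.7 (IgM), -1.72 and 1.59 (IgA) and -36.8 and 0.68 (IgG), and O FIS minus O VEH between -4.94 and 8.12 (IgM), -1.75 and 3.57 (IgA) and -6.37 and 2.26 (IgG). The immunoglobulin share of old minus young lay between -2.02 and 4.55. DARs of the wider set were 0 to 1 (O VEH against Y VEH), 1 to 6 (old against young), 0 to 8 (Y FIS against Y VEH) and 0 to 1 (O FIS against O VEH), and 4 to 130 for IgG against IgM (4 without O FIS F1, 42 without Y VEH F2 or without Y VEH M1).

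Not run, for want of libraries, were in plasma cells the replicate block with 10 or more cells, 20 or more cells, and leaving out Y VEH F2, Y VEH M1, O VEH F1 or O VEH M1; sign flips over matched libraries for class shares; and class contrasts within the rule. With 0 to 15 plasma cells in all libraries but O FIS F1, depth limits what a share can show.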

Other observations

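Not all cells with the 3 plasma cell RNAs were antibody-rich. Of the 564 cells that passed the minimums of Jchain, Mzb1 and Xbp1 but not the genes required at 0, 135 had at most 5% of their UMIs from immunoglobulin genes. Their median was 26 UMIs of Ms4a1, 24 of Jchain and 3 of Xbp1, with 0 of Sdc1, so they carried the B cell marker at a high level and little of the plasma cell program. Library Y VEH M1 held 85 of these 135 cells and 19 of the 380 antibody-rich cells of the same 564. A further 49 cells lay between 5 and 20% and were left in neither set.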
